A study of Mus musculus with 34 samples.

Results

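The comparison described here is of mouse NaJa-F colorectal cancer cells after 1 day in 0.5 µM encorafenib, an inhibitor of mutant BRAF kinase, with the same cells after 1 day in the solvent DMSO. It rests on 6 of the 34 RNA-seq libraries of the series, 3 for each treatment, which were picked by their labels alone, and on all 14107 genes of the count table. NaJa-F is 1 of 3 lines (with NaJa-D and NaJa-G) that grew out of peritoneal lavages of C57BL/6N mice carrying transplanted colon organoids, and each line stems from 1 recipient mouse. The genotype label of all 34 libraries, DMSO controls included, reads VillinCreERT2::BrafV600E/+::Trp53R172H::APCdel, which names a Cre recombinase driven by the intestinal epithelial Villin promoter, an activating V600E allele of Braf beside a wild-type one, the R172H allele of Trp53 and a deleted Apc. NaJa-F is therefore an established tumor line with several drivers, and a fold change here is the effect of a BRAF inhibitor on this line and not on intestinal epithelium. The libraries of a group are given as separate samples, but no source used here says that they are separate cultures, so p-values measure the spread between these samples, which may be technical.

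BRAF phosphorylates the kinases MEK1 and MEK2, which activate the kinases ERK1 and ERK2. Active ERK enters the nucleus and turns on transcription factors of the ETS and AP-1 families and with them a set of early genes, among which are the pathway's own brakes, the DUSP phosphatases and the Sprouty and Spred proteins. The levels of these brakes are widely used as a readout of ERK output, and in BRAF mutant colorectal cancer their loss after BRAF inhibition is known to release signalling from the EGF receptor.

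The 6 libraries held 58442185 to 69837583 counts each, and the TMM factors lay between 0.989 and 1.03. Mitochondrially encoded genes took 3.52% to 3.80% of the counts in DMSO and 3.45% to 3.70% in encorafenib. Replicates of a group correlated at 0.993 or higher in log2 CPM, and the variance between them was 3.75 to 30.6 times that of counting alone. Along the leading axis of a principal component analysis on the 500 genes of highest variance, which held 78.0% of their variance, the 3 DMSO libraries lay at -21.9 to -19.1 and the 3 encorafenib libraries at 18.7 to 22.8. Levels are given throughout as TMM-scaled counts-per-million (CPM) values, group values are means over 3 libraries, and a log2 fold change is that of encorafenib over DMSO from limma-voom, with its standard error (SE).

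Of the 14107 genes tested, 4161 (29.5%) changed at an adjusted p below 0.01, 2468 of them upward (17.5% of all genes) and 1693 downward (12%). Most of these changes were small. The log2 fold change stayed under 0.5 in size for 2351 of the called genes (56.5%), reached 1 for 691 genes (470 higher and 221 lower) and reached 2 for 161 genes (105 higher and 56 lower). The median over all genes was -0.02, and -0.04 when scaled by library size alone. The 3 libraries of one treatment did not overlap with those of the other for 8344 genes (59.1%), among them 4157 of the 4161 called. Each gene list below is read against these shares of all genes.

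**Figure D1:**
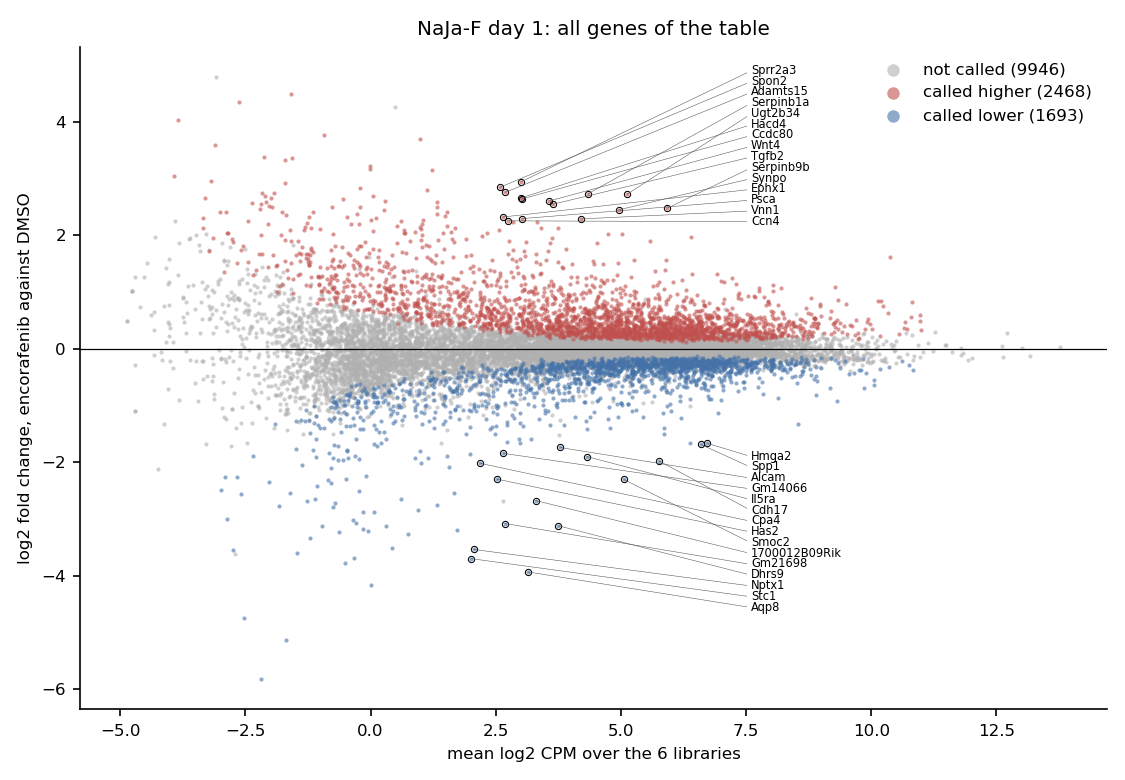
Log2 fold change of encorafenib over DMSO (y axis) against the mean log2 CPM of the 6 NaJa-F day 1 libraries (x axis), 1 point per gene. The 2468 genes called higher are red, the 1693 called lower are blue and all others are grey, and the 15 highest and 15 lowest genes of at least 2 log2 CPM whose groups did not overlap are named, from Sprr2a3 at 2.94 to Aqp8 at -3.93.

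None of the genes altered by design passed the test. Braf stood at 37.0, 35.7 and 38.8 CPM in DMSO and 36.1, 33.4 and 39.1 CPM in encorafenib (log2 fold change -0.04 ± 0.10 (SE), adjusted p = 0.782), and the groups overlapped. Trp53 stood at 184, 189 and 189 CPM in DMSO and 167, 167 and 169 CPM in encorafenib (log2 fold change -0.16 ± 0.05 (SE), adjusted p = 0.0153), just short of the threshold, and Apc at 213, 213 and 196 CPM in DMSO and 235, 222 and 230.2 CPM in encorafenib (log2 fold change 0.14 ± 0.08 (SE), adjusted p = 0.179). A gene's count does not separate its alleles, so these values check neither the point mutations nor the deletion. The paper reports that the wild-type Trp53 allele was lost in all NaJa lines at higher passages. The labelled cell type, a colorectal cancer cell, was checked with epithelial and mesenchymal markers. In DMSO the adhesion genes Cdh1 and Epcam were at 829 and 497 CPM and the simple epithelial keratins Krt8, Krt18 and Krt19 at 1460.5, 1498 and 879.8 CPM. Cdx2, the transcription factor of the intestine, was at 51.7 CPM and the intestinal cadherin Cdh17 at 108 CPM, while the brush border gene Vil1 was near 0 at 0.702 CPM. The mesenchymal genes Vim, Cdh2 and Zeb1 were present beside them, at 449, 64.8 and 17.1 CPM.

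Genes that mark other cell types of a peritoneal lavage were mostly not in the table. Only 2 of 12 leukocyte markers were listed, Csf1r and Cd14, and Ptprc, the pan-leukocyte marker, was among those not listed. Csf1r, the receptor of the macrophage growth factor CSF1, rose from 0.919 to 4.11 CPM (log2 fold change 2.15 ± 0.13 (SE), adjusted p = 1.94e-13) and Cd14 stood at 29.3 CPM in DMSO and 28.8 CPM in encorafenib. Of 7 endothelial markers 2 were in the table, with a summed level of 0.861 to 1.29 CPM in DMSO and 0.971 to 1.07 CPM in encorafenib, and neither was called. Of 7 fibroblast markers that the table holds, 3 rose at low levels, Col1a1 from 1.61 to 2.88 CPM, Col3a1 from 0.231 to 0.666 CPM and Dcn from 0.179 to 0.830 CPM. Their summed level was 5.05 to 5.51 CPM in the DMSO libraries and 6.89 to 7.35 CPM in the encorafenib libraries. Of 6 mesothelial markers 4 were in the table and 2 rose, while Wt1, the transcription factor of that lineage, was not listed. Nearly all of their summed level, 743 to 985 CPM in DMSO and 1104 to 1176 CPM in encorafenib, was mesothelin (Msln), a surface protein that many carcinomas also make, which stood at 764, 742 and 983 CPM in DMSO and 1152, 1174 and 1102 CPM in encorafenib (log2 fold change 0.48 ± 0.12 (SE), adjusted p = 0.00157). Upk3b, a marker with narrower use, was near 0 and rose from 0.0810 to 0.545 CPM. The keratins Krt7, Krt8 and Krt19, which mesothelium shares with simple epithelium, rose in the same libraries, and the part of other cell types in the results was not tested. The paper reports that host cells were lost over several passages, read from the disappearance of the wild-type Apc PCR product. It gives no passage for these libraries in particular. In a culture measured in bulk, fewer cells of a type and less RNA per cell cannot be told apart, here and in every result that follows.

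ERK pathway brakes fell as a group, with exceptions inside the DUSP family. Of 19 feedback inhibitors in the table, 11 fell and 5 rose, against 12% and 17.5% of all genes, and the median log2 fold change was -0.47. Dusp6 (ENSMUSG00000019960, chr10:99263231-99267489, + strand), the cytoplasmic phosphatase that dephosphorylates ERK, stood at 178, 174 and 175 CPM in DMSO and 95, 88.7 and 98.4 CPM in encorafenib. All 3 encorafenib libraries lay below all 3 DMSO libraries, a 1.87-fold fall (log2 fold change -0.90 ± 0.07 (SE), adjusted p = 7.08e-11). Dusp5, a nuclear ERK phosphatase, stood at 69.3, 73.0 and 72.6 CPM in DMSO and 42.5, 43.9 and 45.5 CPM in encorafenib (log2 fold change -0.70 ± 0.08 (SE), adjusted p = 7.63e-08). Dusp7 fell by less (-0.33), and Dusp4 was at 129.9 CPM in DMSO and 111 CPM in encorafenib without passing the test (adjusted p = 0.0309).

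Other members of the same phosphatase family went the opposite way. Dusp1, which acts on JNK and p38 as well as on ERK, stood at 61.6, 61.7 and 65.0 CPM in DMSO and 118, 111 and 116 CPM in encorafenib (log2 fold change 0.88 ± 0.06 (SE), adjusted p = 8.66e-13). Dusp10, Dusp8 and Dusp16, which act mainly on JNK and p38, rose by 0.64, 0.59 and 0.25 on the log2 scale. The 4 that rose and the 3 that fell leave the DUSP phosphatases with a median of -0.23.

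The Sprouty and Spred genes, whose proteins block RAS activation below receptor kinases, showed the largest falls of the list. Spry4 stood at 11.9, 11.5 and 11.4 CPM in DMSO and 4.15, 3.36 and 3.70 CPM in encorafenib, a 3.12-fold fall (log2 fold change -1.64 ± 0.14 (SE), adjusted p = 1.19e-10). Spred3 stood at 20.2, 19.4 and 31.2 CPM in DMSO and 9.57, 8.39 and 9.64 CPM in encorafenib (log2 fold change -1.34 ± 0.21 (SE), adjusted p = 8.42e-06), and the third DMSO library was high relative to the other two. Spry2, Spred2 and Spred1 fell by smaller amounts (-0.65, -0.53 and -0.26). Spry1 was the exception, at 43.2, 43.4 and 42.1 CPM in DMSO and 72.1, 71.3 and 69.6 CPM in encorafenib (log2 fold change 0.73 ± 0.06 (SE), adjusted p = 3.86e-10). All 3 inhibitors of receptor kinases in the list fell, Errfi1, the EGFR inhibitor MIG6, from 132 to 80.6 CPM, Lrig1 from 86.3 to 62.5 CPM and Lrig3 from 2.81 to 1.98 CPM.

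**Figure D2:**
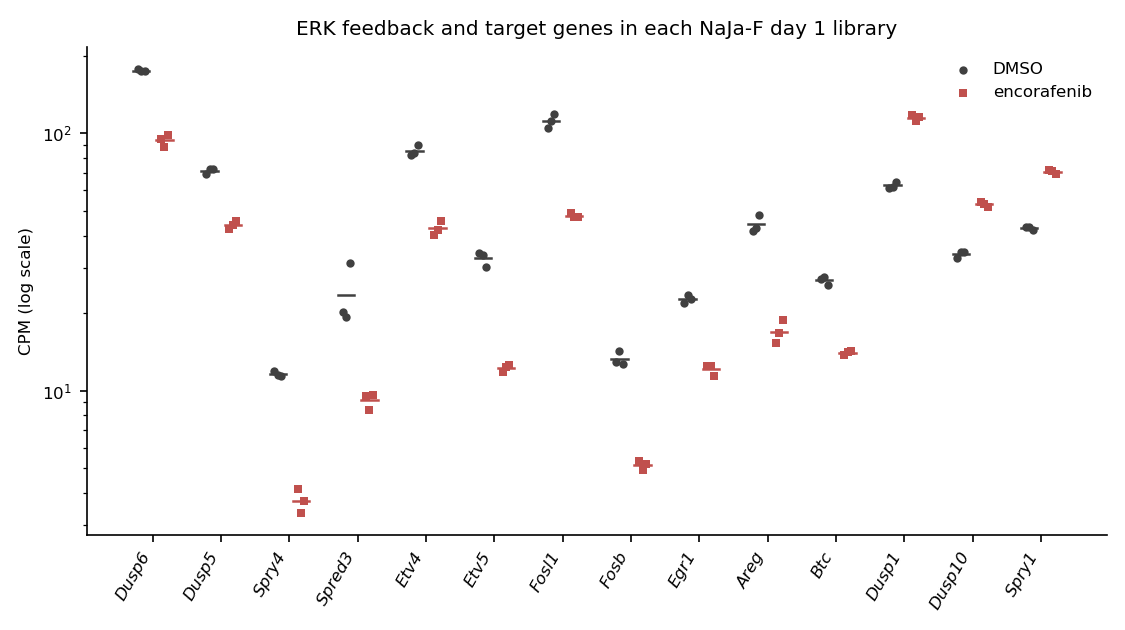
CPM on a log axis of 14 ERK feedback and target genes in each of the 3 DMSO (dark circles) and 3 encorafenib (red squares) NaJa-F day 1 libraries, with group means as bars. The genes were chosen after their values were seen. The libraries of the treatments do not overlap for any of the 14, nor for 59.1% of all genes. Dusp1, Dusp10 and Spry1 were higher in encorafenib and the other 11 lower.

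Transcription factors that ERK induces followed the same line for a few members only. The 3 PEA3 factors of the ETS family all fell. Etv4 stood at 82.7, 84.2 and 89.9 CPM in DMSO and 40.3, 42.2 and 45.5 CPM in encorafenib (log2 fold change -1.0 ± 0.06 (SE), adjusted p = 5.42e-13) and Etv5 at 34.2, 33.6 and 30.3 CPM in DMSO and 11.8, 12.3 and 12.6 CPM in encorafenib (log2 fold change -1.42 ± 0.08 (SE), adjusted p = 3.18e-14), with no overlap between treatments. Etv1 was hardly expressed, at 0.273 CPM in DMSO and 0.0631 CPM in encorafenib. None of the other 13 ETS factors fell and 5 rose, with Ehf (0.42) and Ets2 (0.41) the largest in size, and the ternary complex factors Elk1 and Elk4, partners of SRF on early gene promoters, were not called.

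Within AP-1, the FOS side moved and the JUN side did not pass the test. Fosl1, the FOS family member most tied to sustained ERK activity, stood at 105, 111 and 119 CPM in DMSO and 49.0, 47.4 and 47.3 CPM in encorafenib (log2 fold change -1.22 ± 0.09 (SE), adjusted p = 1.05e-11). Fosb stood at 12.9, 14.2 and 12.7 CPM in DMSO and 5.34, 4.93 and 5.17 CPM in encorafenib (log2 fold change -1.36 ± 0.10 (SE), adjusted p = 1.03e-11). Fosl2 rose slightly from 236 to 271 CPM, and Fos itself was near the floor at 1.61 and 1.33 CPM. Of the JUN genes, Jun and Jund had log2 fold changes of 0.22 and 0.20, and none of the 3 was called. Among other early genes, Egr1 stood at 21.9, 23.4 and 22.7 CPM in DMSO and 12.4, 12.4 and 11.4 CPM in encorafenib (log2 fold change -0.91 ± 0.10 (SE), adjusted p = 1.46e-08), Nr4a1 fell from 22.4 to 14.6 CPM, Myc fell from 220.1 to 173 CPM (log2 fold change -0.35 ± 0.08 (SE), adjusted p = 5.85e-04), and Klf6 and Atf3 rose (0.41 and 0.44). In all, 7 of the 22 listed AP-1 and early factors fell and 3 rose.

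In the core of the cascade few genes were called. None of the 10 kinases and scaffolds was called, with log2 fold changes from -0.26 (Ksr1) to 0.22 (Mapk3, which encodes ERK1). Mapk3 stood at 181, 185 and 165 CPM in DMSO and 212, 209 and 197 CPM in encorafenib with an adjusted p of 0.0314. Of 11 RAS genes and adaptors, 4 rose. Gab1, the docking protein that recruits SHP2 to receptors, rose most, at 12.8, 12.6 and 12.7 CPM in DMSO and 23.2, 23.4 and 23 CPM in encorafenib (log2 fold change 0.87 ± 0.06 (SE), adjusted p = 1.97e-12), and Nras and Ptpn11, which encodes SHP2, rose by 0.19 and 0.26.

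Of 3 EGF receptor genes 1 rose, and of 8 ligands 4 fell. Egfr rose modestly, at 121, 126 and 118 CPM in DMSO and 152, 144 and 153 CPM in encorafenib (log2 fold change 0.30 ± 0.06 (SE), adjusted p = 2.64e-04), while Erbb2 (0.10, adjusted p = 0.286) and Erbb3 (0.21, adjusted p = 0.0103) did not pass the test. None of the ligands rose. Areg, which encodes amphiregulin, stood at 41.9, 43.0 and 48.0 CPM in DMSO and 15.4, 16.8 and 18.7 CPM in encorafenib (log2 fold change -1.39 ± 0.10 (SE), adjusted p = 2.21e-12). Btc, which encodes betacellulin, stood at 27.3, 27.5 and 25.8 CPM in DMSO and 13.7, 14.1 and 14.3 CPM in encorafenib (log2 fold change -0.94 ± 0.07 (SE), adjusted p = 3.97e-12). Ereg fell from 48.5 to 33.5 CPM and Hbegf from 128 to 103 CPM, whereas Tgfa, at 118 CPM in DMSO and 106 CPM in encorafenib, was not called.

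Other receptor kinases changed one by one. Fgfr1 fell from 10.1 to 5.22 CPM (log2 fold change -0.95 ± 0.08 (SE), adjusted p = 4.75e-11), and Axl, at 743 CPM in DMSO, had a log2 fold change of -0.22 that was not called (adjusted p = 0.0682). The collagen receptor Ddr1 rose from 227 to 302 CPM, and the ligands Pdgfb and Pdgfc rose by 0.75 and 0.67. In the insulin and PI3K list 7 of 20 genes rose and 1 fell. The regulatory subunit gene Pik3r1 rose from 25.6 to 33.2 CPM, the PI3K inhibitor gene Pik3ip1 from 2.92 to 4.44 CPM and Foxo1 from 24.8 to 31.4 CPM, and Deptor, an inhibitor of mTOR, fell from 21.1 to 13.9 CPM.

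The 15 genes with the largest falls at 2 log2 CPM or more, the treatments not overlapping, were a mixture of secreted, surface and matrix genes. Aqp8 (ENSMUSG00000030762, chr7:123462291-123468004, + strand), a water channel of the colonic surface epithelium, stood at 33.8, 35.1 and 34.3 CPM in DMSO and 2.37, 2.21 and 2.18 CPM in encorafenib, a 15.3-fold fall (log2 fold change -3.93 ± 0.21 (SE), adjusted p = 5.90e-15). Stc1, which encodes the secreted glycoprotein stanniocalcin, stood at 14.4, 13.4 and 15 CPM in DMSO and 1.02, 1.07 and 1.18 CPM in encorafenib (log2 fold change -3.70 ± 0.19 (SE), adjusted p = 2.81e-15). Nptx1, a secreted pentraxin, stood at 14.8, 13.7 and 13.9 CPM in DMSO and 1.05, 1.47 and 1.14 CPM in encorafenib (log2 fold change -3.54 ± 0.21 (SE), adjusted p = 7.71e-14). The lack of overlap in these 3 genes was a condition for being in this list. Dhrs9 (ENSMUSG00000027068, chr2:69380445-69404533, + strand), a short-chain dehydrogenase of retinoid metabolism, stood at 38.5, 39.6 and 40.3 CPM in DMSO and 4.21, 4.30 and 5.15 CPM in encorafenib (log2 fold change -3.12 ± 0.12 (SE), adjusted p = 8.70e-18).

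Further down that order came Smoc2, a secreted protein of the intestinal stem cell zone, at 79.1, 72.7 and 69.7 CPM in DMSO and 15.2, 15.2 and 14.5 CPM in encorafenib (log2 fold change -2.30 ± 0.06 (SE), adjusted p = 2.33e-21), and Has2, the hyaluronan synthase, at 12.9, 12.9 and 12.3 CPM in DMSO and 2.72, 2.21 and 2.84 CPM in encorafenib (log2 fold change -2.30 ± 0.15 (SE), adjusted p = 3.89e-13). Cdh17, the cadherin that marks intestinal epithelium, stood at 111, 111 and 102 CPM in DMSO and 28.0, 26.9 and 27.5 CPM in encorafenib (log2 fold change -1.98 ± 0.07 (SE), adjusted p = 4.53e-18). Spp1, which encodes osteopontin, fell from 174 to 54.0 CPM and Hmga2, a chromatin protein of embryonic and cancer cells, from 187 to 59.1 CPM. The remaining named genes were the carboxypeptidase Cpa4 (-2.02), the interleukin-5 receptor chain Il5ra (-1.90), the adhesion molecule Alcam (-1.74) and 3 genes without an established role, Gm21698 (-3.08), 1700012B09Rik (-2.67) and Gm14066 (-1.84).

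The 15 largest rises at 2 log2 CPM or more without overlap between treatments were headed by genes of barrier epithelia, secreted factors and enzymes of detoxification. Sprr2a3, a small proline-rich protein of the cornified envelope, stood at 3.21, 3.10 and 2.42 CPM in DMSO and 24.2, 22.3 and 20.1 CPM in encorafenib (log2 fold change 2.94 ± 0.14 (SE), adjusted p = 1.39e-15), with the reservation that it has near-identical neighbours among which reads can be split. Spon2, a secreted matrix protein, stood at 2.61, 2.15 and 1.97 CPM in DMSO and 16.5, 16.3 and 15.1 CPM in encorafenib (log2 fold change 2.85 ± 0.12 (SE), adjusted p = 5.83e-17). Serpinb1a, an inhibitor of neutrophil proteases, stood at 8.40, 7.67 and 7.58 CPM in DMSO and 55.4, 52.5 and 49.3 CPM in encorafenib (log2 fold change 2.74 ± 0.09 (SE), adjusted p = 5.90e-19). The related Serpinb9b rose from 25.8 to 143 CPM (2.48 ± 0.07).

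Signalling ligands were among them. Wnt4 stood at 5.18, 5.12 and 4.21 CPM in DMSO and 30.1, 31.7 and 26.2 CPM in encorafenib (log2 fold change 2.61 ± 0.11 (SE), adjusted p = 1.93e-16), and Tgfb2, a TGF-beta ligand, at 5.66, 5.60 and 4.34 CPM in DMSO and 31.0, 29.3 and 29.8 CPM in encorafenib (log2 fold change 2.55 ± 0.11 (SE), adjusted p = 5.00e-17). Both were low in all 3 DMSO libraries and high in all 3 encorafenib libraries. Ccn4, a matricellular protein gene first found as a WNT target, rose from 3.07 to 14.7 CPM. Ugt2b34, a UDP-glucuronosyltransferase, rose from 13.6 to 89.6 CPM and Ephx1, the microsomal epoxide hydrolase, from 2.76 to 13.9 CPM, and Vnn1, a pantetheinase, from 8.36 to 40.7 CPM. The others were the metalloproteinase Adamts15 (2.76), the fatty acid elongation enzyme Hacd4 (2.66), the secreted Ccdc80 (2.64), the actin-binding Synpo (2.45) and the surface antigen Psca (2.29).

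Small proline-rich (SPRR) proteins are cross-linked under the membrane of squamous and stressed epithelial cells by transglutaminases, on a scaffold of involucrin, envoplakin and periplakin. All 13 members of this list in the table changed, 11 upward and 2 downward, with a median log2 fold change of 1.48, and Sprr2d and Sprr2f were not in the table. Without the members below 2 log2 CPM the median was 0.47. Sprr1a (ENSMUSG00000050359, chr3:92483952-92485895, - strand) stood at 759, 781 and 743 CPM in DMSO and 2479, 2373 and 2195 CPM in encorafenib, a 3.08-fold rise (log2 fold change 1.62 ± 0.10 (SE), adjusted p = 1.35e-13) with no overlap. Sprr2b and Sprr1b rose from near 0 (from 0.0916 to 0.406 CPM and from 0.237 to 0.767 CPM). Sprr2a1 and Sprr2a2 rose by 1.48 and 1.68, also at levels below 1 CPM, and share nearly all of their sequence with Sprr2a3. Tgm2, a transglutaminase, stood at 8.99, 9.22 and 8.03 CPM in DMSO and 24.1, 23.6 and 22.9 CPM in encorafenib (log2 fold change 1.43 ± 0.10 (SE), adjusted p = 2.47e-12), and the scaffold genes Evpl and Ppl rose by 0.48 and 0.35. Against this direction, Sprr2h stood at 23.1, 22.8 and 28.5 CPM in DMSO and 18.0, 16.7 and 14 CPM in encorafenib (log2 fold change -0.62 ± 0.10 (SE), adjusted p = 6.03e-06) and Ivl, which encodes involucrin, at 5.93, 6.68 and 6.48 CPM in DMSO and 3.34, 3.65 and 4.05 CPM in encorafenib (log2 fold change -0.79 ± 0.11 (SE), adjusted p = 1.95e-06). The list thus held rises and falls within 1 gene cluster on chromosome 3.

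AP-1, a dimer of FOS and JUN proteins, binds the letters TGANTCA, and the promoters of SPRR genes were searched for these letters on both strands. Windows of 300 bases, 250 before and 50 after the start, came from RefSeq (GRCm38.p6) and were used for the 8124 genes of the table with a single window. The letters were present in 5 of 9 SPRR and cornified envelope genes with a window (Sprr1a, Sprr1b, Sprr2b, Sprr2h and Ivl) and in 4.92% of all 8124. The 250 bases before the start are printed for 4 of them, on both sides of the change, and for Dhrs9 and the collagenase gene Mmp13, which fell from 4.23 to 2.57 CPM, with the matching letters in capitals. They lie at chr3:92485882-92486131 (- strand, Sprr1a), chr3:92316455-92316704 (+ strand, Sprr2b), chr3:92385435-92385684 (+ strand, Sprr2h), chr3:92573736-92573985 (- strand, Ivl), chr2:69380212-69380461 (+ strand, Dhrs9) and chr9:7272264-7272513 (+ strand, Mmp13).
Sprr1a: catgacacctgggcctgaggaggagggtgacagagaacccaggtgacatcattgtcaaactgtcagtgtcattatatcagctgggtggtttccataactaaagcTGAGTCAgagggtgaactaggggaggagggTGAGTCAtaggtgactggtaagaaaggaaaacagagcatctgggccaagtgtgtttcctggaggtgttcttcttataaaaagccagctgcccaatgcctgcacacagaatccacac
Sprr2b: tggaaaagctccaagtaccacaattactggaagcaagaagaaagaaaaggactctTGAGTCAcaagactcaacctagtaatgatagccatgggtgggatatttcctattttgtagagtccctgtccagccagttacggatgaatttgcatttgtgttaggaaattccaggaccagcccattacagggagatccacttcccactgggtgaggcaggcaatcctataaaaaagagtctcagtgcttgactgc
Sprr2h: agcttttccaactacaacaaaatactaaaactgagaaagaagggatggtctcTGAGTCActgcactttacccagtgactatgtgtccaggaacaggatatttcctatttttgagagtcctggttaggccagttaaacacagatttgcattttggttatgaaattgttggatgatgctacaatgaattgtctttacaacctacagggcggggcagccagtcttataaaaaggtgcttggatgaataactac
Ivl: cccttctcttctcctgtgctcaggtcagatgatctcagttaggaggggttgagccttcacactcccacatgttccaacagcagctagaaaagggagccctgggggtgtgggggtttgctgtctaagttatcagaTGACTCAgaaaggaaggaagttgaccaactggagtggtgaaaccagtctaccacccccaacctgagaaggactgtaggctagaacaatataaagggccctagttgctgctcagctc
Dhrs9: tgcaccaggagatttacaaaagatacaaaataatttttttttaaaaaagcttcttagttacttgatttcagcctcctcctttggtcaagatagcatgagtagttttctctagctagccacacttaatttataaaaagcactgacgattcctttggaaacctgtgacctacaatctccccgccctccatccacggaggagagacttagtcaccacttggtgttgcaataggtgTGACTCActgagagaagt
Mmp13: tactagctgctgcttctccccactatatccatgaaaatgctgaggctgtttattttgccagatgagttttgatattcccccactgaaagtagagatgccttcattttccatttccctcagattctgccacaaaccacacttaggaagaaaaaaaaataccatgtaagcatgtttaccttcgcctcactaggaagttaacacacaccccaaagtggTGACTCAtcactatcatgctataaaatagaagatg
The same letters therefore occurred before the RefSeq starts of genes that rose (Sprr1a, with 2 matches, and Sprr2b). They also occurred before those of genes that fell (Sprr2h, Ivl, Dhrs9 and Mmp13). The Dhrs9 window runs past the GENCODE start of the gene, and most of its match lies beyond that start. A match is a description of the sequence and not a measured binding site.

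Over all called genes the AP-1 letters were in 6.69% of 1449 promoters of genes that rose and 6.20% of 1032 of genes that fell. Where the change was at least 1 on the log2 scale the shares were 11.0% of 263 and 11.7% of 128. The ETS letters CCGGAAG, common in promoters of housekeeping genes, were in 10.4% of promoters of rising genes, 19.96% of falling genes and 19.1% of all, and the CRE letters TGACGTCA in 2.55%, 3.68% and 3.39%. The E-box CACGTG was in 8.90%, 11.3% and 10.3% and the sterol element TCACNCCAC in 1.24%, 0.775% and 1.02%. The E2F letters TTTNGCGC were in 1.10%, 3.68% and 2.38%. Where the change was at least 1 on the log2 scale, the ETS letters were in 1.52% of promoters of rising genes and 3.91% of falling genes, the CRE letters in 1.90% and 3.13%, and the E-box in 6.46% and 8.59%. At that size the sterol element was in 1.14% and 0%, and the E2F letters in none of either.

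Cell cycle genes fell by small amounts. Of 30 DNA replication and S phase genes in the table, 19 fell and none rose, with a median of -0.25. Cdt1, a licensing factor that loads the MCM helicase, stood at 96.2, 98.1 and 95.7 CPM in DMSO and 68.7, 68.1 and 66.9 CPM in encorafenib (log2 fold change -0.51 ± 0.09 (SE), adjusted p = 4.82e-05), and Mcm10, which helps the helicase start, at 64.7, 63.4 and 72.3 CPM in DMSO and 48.2, 47.3 and 51.3 CPM in encorafenib (log2 fold change -0.45 ± 0.06 (SE), adjusted p = 9.02e-07). The helicase subunits Mcm3, Mcm4, Mcm5 and Mcm7 fell (log2 fold changes -0.28, -0.32, -0.24 and -0.26), while Mcm2 (-0.13) did not pass the test. Rrm2, the regulated subunit of ribonucleotide reductase, fell from 377 to 296 CPM and Rrm1 (0.15) was not called. The lowest log2 fold change of any listed S phase gene was -0.51.

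E2F factors bind before many of these genes, and their letters TTTNGCGC were in 8 of the 21 S phase promoters with a window. Mcm5 (chr8:75109259-75109508, + strand) and Orc1 (chr4:108579204-108579453, + strand), a subunit of the origin recognition complex that fell from 14.6 to 11.2 CPM, are shown with the matches in capitals, which in Mcm5 are 2 that overlap on opposite strands.
Mcm5: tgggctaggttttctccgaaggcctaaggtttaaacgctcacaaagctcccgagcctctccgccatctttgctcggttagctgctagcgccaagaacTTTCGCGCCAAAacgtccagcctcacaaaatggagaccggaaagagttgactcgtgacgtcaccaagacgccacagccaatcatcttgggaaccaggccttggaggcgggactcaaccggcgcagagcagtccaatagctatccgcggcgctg
Orc1: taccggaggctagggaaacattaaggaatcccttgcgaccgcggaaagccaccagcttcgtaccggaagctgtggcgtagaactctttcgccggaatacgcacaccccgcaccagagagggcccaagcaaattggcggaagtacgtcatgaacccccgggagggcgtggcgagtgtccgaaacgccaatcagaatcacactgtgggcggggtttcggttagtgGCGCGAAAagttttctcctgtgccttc

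Mitosis and G2/M genes gave 13 falls and no rise among 27, with a median of -0.21 and a lowest value of -0.39 (Kif2c, a kinesin). Ccnb1, which encodes cyclin B1, stood at 206, 202 and 200.3 CPM in DMSO and 161, 168 and 170.3 CPM in encorafenib (log2 fold change -0.29 ± 0.05 (SE), adjusted p = 3.21e-05). The proliferation marker Mki67 had a like fold change (-0.29 ± 0.10) that missed the threshold (adjusted p = 0.0202), and Cdk1 (-0.17) and Ccna2 (-0.06) were also not called.

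The regulators of entry into S phase were split. Ccnd1, the D cyclin most tied to ERK, stood at 659, 674 and 581 CPM in DMSO and 678, 667 and 675 CPM in encorafenib and was not called (0.08, adjusted p = 0.450), whereas Ccnd2 rose from 33.2 to 58.1 CPM (log2 fold change 0.81 ± 0.08 (SE), adjusted p = 1.95e-09) and Cdk6 from 314 to 416 CPM. Cdkn2b, an inhibitor of CDK4 and CDK6, rose from 23.6 to 37.9 CPM, and Cdkn1a, the p21 inhibitor, was at 15.1 and 16.5 CPM, not called. E2f2 fell from 10.4 to 6.00 CPM, E2f8 from 86.3 to 67.0 CPM, Ccne1 from 41.0 to 34.6 CPM and Ccne2 from 32.2 to 25.4 CPM. In the whole list of cyclins, CDKs and inhibitors 5 of 23 fell (21.7%) and 4 rose (17.4%), against 12% and 17.5% of all genes. The rises were thus at the share of all genes.

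Genes of MYC and ribosome biogenesis fell as a block. Of 30 in the table, 27 fell and none rose, with log2 fold changes between -0.53 and -0.12 and a median of -0.36. Cad, the enzyme that begins pyrimidine synthesis, stood at 568, 594 and 511 CPM in DMSO and 385, 381 and 391 CPM in encorafenib (log2 fold change -0.53 ± 0.07 (SE), adjusted p = 1.33e-06), and Nop56, a core protein of the snoRNPs that methylate rRNA, at 324, 332 and 401 CPM in DMSO and 238, 250.1 and 246 CPM in encorafenib (log2 fold change -0.52 ± 0.09 (SE), adjusted p = 1.85e-05). Nucleolin (Ncl) fell from 1898 to 1559 CPM, nucleophosmin (Npm1) from 1305 to 1015 CPM and ornithine decarboxylase (Odc1), a textbook MYC target, from 521 to 379 CPM. Rrs1, Bop1 and Gnl3 were the 3 that were not called. Cytosolic ribosomal proteins, by contrast, gave 6 falls among 80 with a median of -0.19. They included Rpl10a (from 458 to 349.9 CPM) and Rpl37a (from 295 to 236 CPM), and because these genes have many processed pseudogenes their counts are uncertain.

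**Figure D3:**
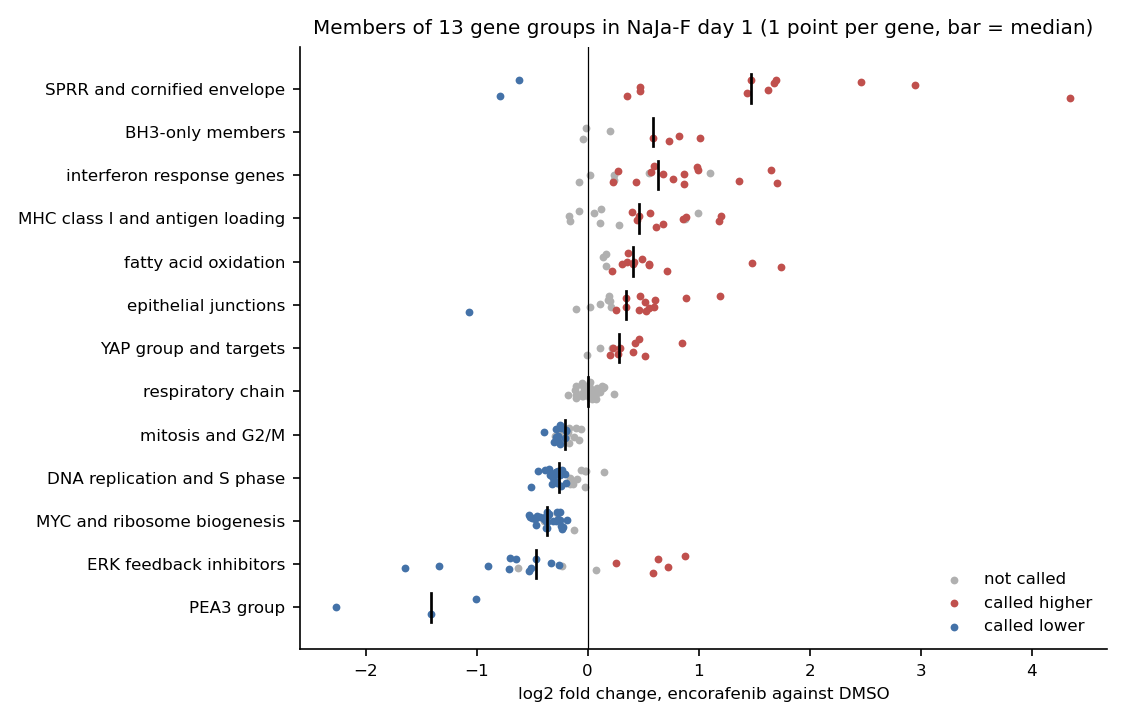
Log2 fold changes of the members of 13 gene groups (1 point per gene, jittered within its line), red where called higher, blue where called lower and grey where not called, with a bar at each group's median. The SPRR group is spread from -0.79 (Ivl) to 2.94 (Sprr2a3), with Sprr3 beyond at a value that depends on the prior count because its DMSO libraries hold almost no reads, while the replication, mitosis and ribosome biogenesis groups form narrow bands below 0 and the respiratory chain sits at 0.

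Death genes moved on the BH3-only side of the BCL2 family, the side that neutralises survival members. Bmf rose from 2.59 to 4.62 CPM, Pmaip1, which encodes NOXA, stood at 40.2, 38.8 and 39.1 CPM in DMSO and 63.4, 65.4 and 67.6 CPM in encorafenib (log2 fold change 0.73 ± 0.06 (SE), adjusted p = 3.32e-11), Bid rose from 30.1 to 45.3 CPM and Bik from 0.756 to 1.5 CPM. Bcl2l11, which encodes BIM and is the BH3-only gene best known to answer to ERK, stood at 29.7, 28.5 and 29.0 CPM in DMSO and 29.4, 29.4 and 27.5 CPM in encorafenib (log2 fold change -0.02 ± 0.08 (SE), adjusted p = 0.886), and the treatments overlapped. None of the 3 effectors was called, Bax being at 54.1 and 52.8 CPM and Bak1 at 78.6 and 95.2 CPM. Of the 4 survival members Mcl1 rose slightly (0.17), and Bcl2 and Bcl2l1 were not called (-0.14 and 0.11). Among caspases, Casp12 rose from 1.22 to 6.19 CPM. The alarmin Il33 rose from 2.42 to 6.42 CPM, and Cflar, the inhibitor of caspase-8 known as FLIP, fell from 131 to 98.1 CPM. Trp53 target genes gave 6 rises and 2 falls among 17, with Btg2 (from 5.79 to 12.1 CPM) and Trp53inp1 (from 8.58 to 17.4 CPM) the largest, Mdm2 not called (-0.07) and Pidd1 falling from 11.4 to 6.62 CPM.

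Fatty acid oxidation genes rose in 12 of 15 cases and fell in none, with a median of 0.41. Cpt1a, the carnitine transferase that sets the rate of import into mitochondria, stood at 105, 103 and 96.7 CPM in DMSO and 151, 148 and 148 CPM in encorafenib (log2 fold change 0.55 ± 0.05 (SE), adjusted p = 4.87e-10). The nuclear receptor gene Pparg rose from 23.7 to 31.4 CPM, the enoyl-CoA isomerase gene Ech1 from 22.8 to 37.5 CPM and Acadl from 113 to 144 CPM, while Hadha and Hadhb, the trifunctional protein, were not called (0.16 and 0.13). Pdk4, an inhibitor of pyruvate dehydrogenase, rose from near 0 (from 0.0732 to 0.265 CPM). None of the 30 respiratory chain genes was called, with log2 fold changes between -0.18 and 0.24.

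Glycolysis and hypoxia genes gave 4 rises and 4 falls among 26 (15.4% each), close to the shares of all genes (17.5% and 12%). The lactate transporter Slc16a1 fell from 257 to 180.0 CPM (log2 fold change -0.51 ± 0.07 (SE), adjusted p = 2.05e-06) and the glucose transporter Slc2a1 from 176 to 145 CPM, whereas Pfkfb3, which makes the activator of phosphofructokinase, rose from 28.4 to 44.3 CPM. The core enzyme genes Aldoa, Pkm and Pgk1 had log2 fold changes of -0.10, -0.08 and 0.06, none called. Cholesterol and fatty acid synthesis also gave 4 rises and 4 falls, among 32 (12.5% each). That is below the share of all genes for rises and near it for falls. Srebf1, which encodes the transcription factor SREBP1, fell from 232 to 186 CPM, and Me1, the cytosolic malic enzyme that supplies NADPH, stood at 173, 170.4 and 161 CPM in DMSO and 310.0, 323 and 319 CPM in encorafenib (log2 fold change 0.92 ± 0.07 (SE), adjusted p = 3.32e-11).

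Stress response genes did not move as blocks. In the ATF4 and unfolded protein list 6 of 26 fell and 3 rose. Phgdh, the entry enzyme of serine synthesis, stood at 906, 952 and 794 CPM in DMSO and 465, 474 and 462 CPM in encorafenib (log2 fold change -0.92 ± 0.11 (SE), adjusted p = 4.60e-08), and Shmt2 and Psat1 of the same route fell (-0.42 and -0.29). Slc7a11, the cystine importer, stood at 199, 187 and 159 CPM in DMSO and 85.2, 81.6 and 82.5 CPM in encorafenib (log2 fold change -1.12 ± 0.09 (SE), adjusted p = 5.31e-11). The chaperone Hspa5 (-0.20) and the factors Atf4 (-0.16) and Ddit3 (-0.07) were not called. Of 20 NRF2 targets 9 rose and 2 fell, Slc7a11 being one of the falls. The glutathione transferase gene Gsta4 stood at 5.47, 5.12 and 4.63 CPM in DMSO and 22.7, 22 and 21.3 CPM in encorafenib (log2 fold change 2.12 ± 0.10 (SE), adjusted p = 8.06e-16), Gstm1 rose from 14.8 to 29.6 CPM and Nqo1 from 6.97 to 12.1 CPM, while Gclc and Gclm, which make glutathione, were not called.

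Lysosome and autophagy genes gave 12 rises among 33 and 1 fall, with a median of 0.13. The proton pump subunit Atp6v0d1 rose from 41.9 to 65.0 CPM, Lamp2 from 276 to 388 CPM and the autophagosome gene Map1lc3a from 22.5 to 35.7 CPM. The fall was in Ctsl, which encodes cathepsin L, at 1369, 1354 and 1276 CPM in DMSO and 846, 855 and 868 CPM in encorafenib (log2 fold change -0.64 ± 0.07 (SE), adjusted p = 3.85e-08). Sqstm1, Tfeb and Becn1 were not called.

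Epithelial junction genes rose. Of 20 in the table, 12 rose and 1 fell, with a median of 0.35. Cdh1, which encodes E-cadherin, stood at 858, 865 and 764 CPM in DMSO and 1067, 1045 and 1044 CPM in encorafenib (log2 fold change 0.35 ± 0.07 (SE), adjusted p = 2.85e-04). Jup and Dsp of the desmosome rose from 244 to 372 CPM and from 383 to 559.8 CPM, and the tight junction genes Cldn4 and Tjp3 from 810.0 to 1168 CPM and from 3.78 to 8.70 CPM. Cldn2, a claudin that forms cation pores, was the exception and fell from 4.67 to 2.21 CPM. The keratin genes Krt7, Krt8 and Krt19 rose, Krt19 from 879.8 to 1569 CPM (log2 fold change 0.83 ± 0.10 (SE), adjusted p = 1.43e-07), and Krt20, a marker of differentiated intestinal surface cells, fell from 6.32 to 2.94 CPM (log2 fold change -1.10 ± 0.11 (SE), adjusted p = 2.50e-09).

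Mesenchymal genes were divided in the same libraries. Vim, which encodes vimentin, stood at 466, 472 and 409 CPM in DMSO and 310.0, 292 and 286 CPM in encorafenib (log2 fold change -0.60 ± 0.10 (SE), adjusted p = 1.35e-05), a fall in every encorafenib library. The contractile genes Tpm1 and Cnn2 rose from 839 to 1503 CPM and from 324 to 534 CPM, and Acta2, Myl9 and Tpm2 rose from below 0.5 CPM (from 0.414 to 2.54 CPM, from 0.168 to 0.872 CPM and from 0.448 to 1.59 CPM). Cdh2, which encodes N-cadherin, rose from 64.8 to 79.2 CPM. The low-level rise of fibroblast markers given above was in the same libraries, and its part in these changes was not tested. Of the 6 EMT transcription factors, Snai1, Zeb2 and Prrx1 fell (-0.98, -0.28 and -0.79), Zeb1 rose (0.25), and Snai2 and Twist1 were not called. For TGF-beta and BMP, 6 of 12 ligand and receptor genes rose and 3 fell, Tgfbr2 rising from 402 to 548 CPM and Inhba from 99.9 to 146 CPM, while Bmp7 and Bmp2 fell from 44.6 to 22.9 CPM and from 109 to 73.3 CPM. Only 2 of 13 targets and regulators changed, Id2 (0.28) and Smad7 (-0.33).

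Extracellular matrix genes changed in both directions, 12 up and 3 down among 25. The basement membrane proteoglycan gene Hspg2 stood at 394, 410.0 and 345 CPM in DMSO and 713, 623 and 636 CPM in encorafenib (log2 fold change 0.78 ± 0.11 (SE), adjusted p = 2.28e-06), the laminin chain Lamb3 rose from 416 to 623 CPM and Col6a1 from 4.68 to 15.2 CPM. The laminin chain Lamb1 fell from 381 to 208 CPM (log2 fold change -0.87 ± 0.07 (SE), adjusted p = 9.36e-11) and tenascin C (Tnc) from 31.8 to 17 CPM. Fn1, the fibronectin gene, stood at 9710.5 CPM in DMSO and 8859 CPM in encorafenib and was not called. Of 10 integrin genes 3 rose and 1 fell, with Itga6, a laminin receptor chain, falling from 637 to 362 CPM (log2 fold change -0.82 ± 0.07 (SE), adjusted p = 6.98e-10), and Itgb5 and Itgb6 rising from 57.0 to 101 CPM and from 82.0 to 144 CPM.

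Of 31 proteases and inhibitors, 13 rose and 7 fell. The membrane metalloproteinase Mmp15 stood at 26.7, 26.5 and 21.4 CPM in DMSO and 99.1, 98.0 and 81.7 CPM in encorafenib (log2 fold change 1.91 ± 0.11 (SE), adjusted p = 1.24e-13), its relative Mmp14 rose from 198 to 281 CPM and Adamts1 from 77.3 to 192 CPM. The inhibitors Timp2 and Timp3 rose from 1035 to 1609 CPM and from 36.2 to 81.0 CPM, and Serpinb2, an inhibitor of plasminogen activation, fell from 26.7 to 13.9 CPM. Mmp13 and Adamts8 fell (-0.73 and -2.87). Axon guidance genes, which also steer epithelial and endothelial cells, gave 13 rises and 3 falls among 36. Nrp1, a semaphorin and VEGF co-receptor, rose from 26.7 to 48.0 CPM, Sema3d from 4.85 to 14.8 CPM and Sema3c from 1820.5 to 2286 CPM. Slit2 fell from 31.5 to 16.6 CPM and the ephrin receptor Epha4 from 49.9 to 27.7 CPM.

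Intestinal identity genes went both ways. Cdx2 stood at 52.7, 52.6 and 49.7 CPM in DMSO and 43.9, 45.0 and 41.8 CPM in encorafenib (log2 fold change -0.25 ± 0.08 (SE), adjusted p = 0.0149) and did not pass the threshold, and Gata4 fell from 3.86 to 2.86 CPM. Of 11 differentiation genes 5 rose, mostly at low levels such as Car2 (from 8.39 to 15.5 CPM), and Aqp8, Cdh17 and Dhrs9 were the 3 that fell.

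WNT feedback genes were read here in cells labelled with an Apc deletion, and 5 of 12 rose while 2 fell. Notum, which encodes a secreted WNT deacylase, stood at 6.69, 6.60 and 6.72 CPM in DMSO and 19.8, 17 and 14.3 CPM in encorafenib (log2 fold change 1.34 ± 0.15 (SE), adjusted p = 4.00e-08), and Nkd1 at 8.87, 9.77 and 7.85 CPM in DMSO and 16.3, 13.8 and 13.1 CPM in encorafenib (log2 fold change 0.70 ± 0.11 (SE), adjusted p = 1.15e-05). Axin2 rose from 162 to 193 CPM, Rnf43 from 102 to 135 CPM and Dkk2 from 40.3 to 74.0 CPM, while Apcdd1 and Cd44 fell (-0.43 and -0.21). Among stem cell genes Lgr5 rose from 1.62 to 2.76 CPM and Lgr4 from 56.7 to 73.4 CPM, and Smoc2 and Cdca7 fell. The Notch list gave 3 rises and 4 falls among 13, with Jag1 and Jag2 falling (-0.25 and -0.48), Hes6 rising (0.50) and Hes1 not called (-0.05).

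YAP group and target genes rose in 9 of 12 cases and fell in none, with a median of 0.29. Ccn2, which encodes CTGF, stood at 478, 489 and 481 CPM in DMSO and 869.7, 841 and 905 CPM in encorafenib (log2 fold change 0.85 ± 0.08 (SE), adjusted p = 7.98e-10), the other textbook target Ccn1 rose from 616 to 756 CPM and the coactivator gene Wwtr1, which encodes TAZ, from 113 to 161 CPM. Fetal and regenerative intestinal genes gave 4 rises and 2 falls among 8. Anxa1 rose from 921 to 1561 CPM, and Ly6a and Clu, at 1194 and 1579.5 CPM in DMSO, were not called.

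Antigen presentation and interferon genes rose without a fall among their output genes. Of 19 MHC class I and loading genes 10 rose, with a median of 0.46. Tap1, Psmb8, Psmb9, Nlrc5, H2-T10 and H2-Q7 of the same list were not in the table. Tapbp, which encodes tapasin and loads peptides, stood at 88.7, 92.7 and 83.9 CPM in DMSO and 204, 207 and 189 CPM in encorafenib (log2 fold change 1.18 ± 0.08 (SE), adjusted p = 5.41e-12), and Psme2, a proteasome activator subunit, at 18.1, 16.4 and 16.3 CPM in DMSO and 30.6, 32.4 and 30.6 CPM in encorafenib (log2 fold change 0.89 ± 0.07 (SE), adjusted p = 1.03e-10). B2m rose from 84.1 to 111 CPM and the non-classical H2-T23 from 7.98 to 18.3 CPM, but the classical H2-K1 and H2-D1, at 258 and 284 CPM in DMSO, were not called (0.12 and 0.11). The H2 genes are close relatives, so their counts can borrow reads from each other. Of 20 interferon response genes 14 rose and none fell, with a median of 0.64. Isg15, Ifit1, Ifit3, Oas1a and Gbp3 were not in the table. With interferon receptors and factors included, the median was 0.47, and 0.23 without the members below 2 log2 CPM. Ddx58, which encodes the RNA sensor RIG-I, stood at 20.1, 20.9 and 19.3 CPM in DMSO and 39.5, 39.3 and 41.2 CPM in encorafenib (log2 fold change 0.99 ± 0.05 (SE), adjusted p = 4.64e-15), Parp14 rose from 2.16 to 5.56 CPM and Ifih1 from 8.36 to 14.2 CPM. Their receptors and factors included rises of Ifngr2 (from 29.1 to 49.9 CPM) and Irf1 (from 23.7 to 33.9 CPM) and falls of the feedback inhibitors Socs1 (from 2.10 to 0.958 CPM) and Socs3 (from 16.1 to 11.4 CPM).

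Checkpoint ligands moved individually. Lgals9, which encodes galectin-9, rose from 43.7 to 98.2 CPM (log2 fold change 1.17 ± 0.07 (SE), adjusted p = 1.90e-13), Vtcn1 (B7-H4) from 1.01 to 6.07 CPM and Ceacam1 from 76.2 to 113 CPM. Havcr2, which encodes TIM-3, fell from 45.7 to 23 CPM (log2 fold change -0.99 ± 0.07 (SE), adjusted p = 1.30e-11) and Pdcd1lg2 (PD-L2) from 3.57 to 0.931 CPM. Cd274, which encodes PD-L1, stood at 3.29, 3.10 and 3.96 CPM in DMSO and 3.10, 3.10 and 2.33 CPM in encorafenib, with overlap between treatments and no call. Of 10 chemokines 5 rose and none fell, Cxcl16 from 128 to 172 CPM and Cxcl3 from 40.6 to 59.3 CPM among them. Of 15 cytokines and growth factors 8 fell and 1 rose. The rise was Csf1 (from 82.9 to 126 CPM), and the falls included Vegfa (from 94.7 to 66.1 CPM), Mif (from 217 to 144 CPM) and Csf2 (from 5.97 to 2.95 CPM). NF-kB factors and targets gave 8 rises and 2 falls among 14, with Relb rising from 14 to 20.3 CPM, its inhibitor Nfkbia from 28.9 to 36.8 CPM, and Tnfaip2 falling from 65.7 to 28.7 CPM (log2 fold change -1.20 ± 0.06 (SE), adjusted p = 2.15e-15).

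Solute carriers, the largest list, gave 41 rises and 39 falls among 219, against 17.5% and 12% of all genes. The rises were thus near the share of all genes and the falls above it. Slc4a4, a bicarbonate transporter, rose from 151 to 308 CPM, the iron exporter Slc40a1 from 11.0 to 21.7 CPM, and the nucleoside transporter Slc29a1 and the sodium-proton exchanger Slc9a2 fell from 147 to 79.7 CPM and from 96.4 to 53.9 CPM. The urea transporter Slc14a1 fell from 3.98 to 0.224 CPM (log2 fold change -4.16 ± 0.23 (SE), adjusted p = 2.43e-14). Circadian clock genes gave 2 rises and 2 falls among 14 (14.3% each), close to the shares of all genes. Bhlhe40 rose from 155 to 235 CPM and Nr1d1 fell from 56.3 to 46.8 CPM.

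Among the 20 called genes with the highest CPM, a scale on which long genes count for more, 15 rose and 5 fell. Of all called genes 59.3% rose. Thbs1, which encodes thrombospondin 1, stood at 1389.9, 1368 and 1289 CPM in DMSO and 2457, 2269 and 2411 CPM in encorafenib (log2 fold change 0.82 ± 0.07 (SE), adjusted p = 1.18e-10). Stra6, a receptor for retinol-binding protein, stood at 1778, 1808 and 1533 CPM in DMSO and 2515, 2404 and 2255 CPM in encorafenib (log2 fold change 0.49 ± 0.08 (SE), adjusted p = 3.23e-05), and Krt7 at 1629.6, 1714 and 1603 CPM in DMSO and 2442, 2589 and 2405 CPM in encorafenib (log2 fold change 0.59 ± 0.08 (SE), adjusted p = 1.12e-06). The risers also included Krt8, S100a6 (from 1386 to 1931 CPM), the myosin gene Myh9 (from 1423 to 1828 CPM), Anxa1 and Ctnnb1, the beta-catenin gene (from 1375 to 1638 CPM). Those that fell included the poly(A)-binding protein gene Pabpc1 (from 2076 to 1591 CPM), Ncl, the translation initiation factor gene Eif4g1 (from 1694 to 1462 CPM) and Npm1.

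**Figure D4:**
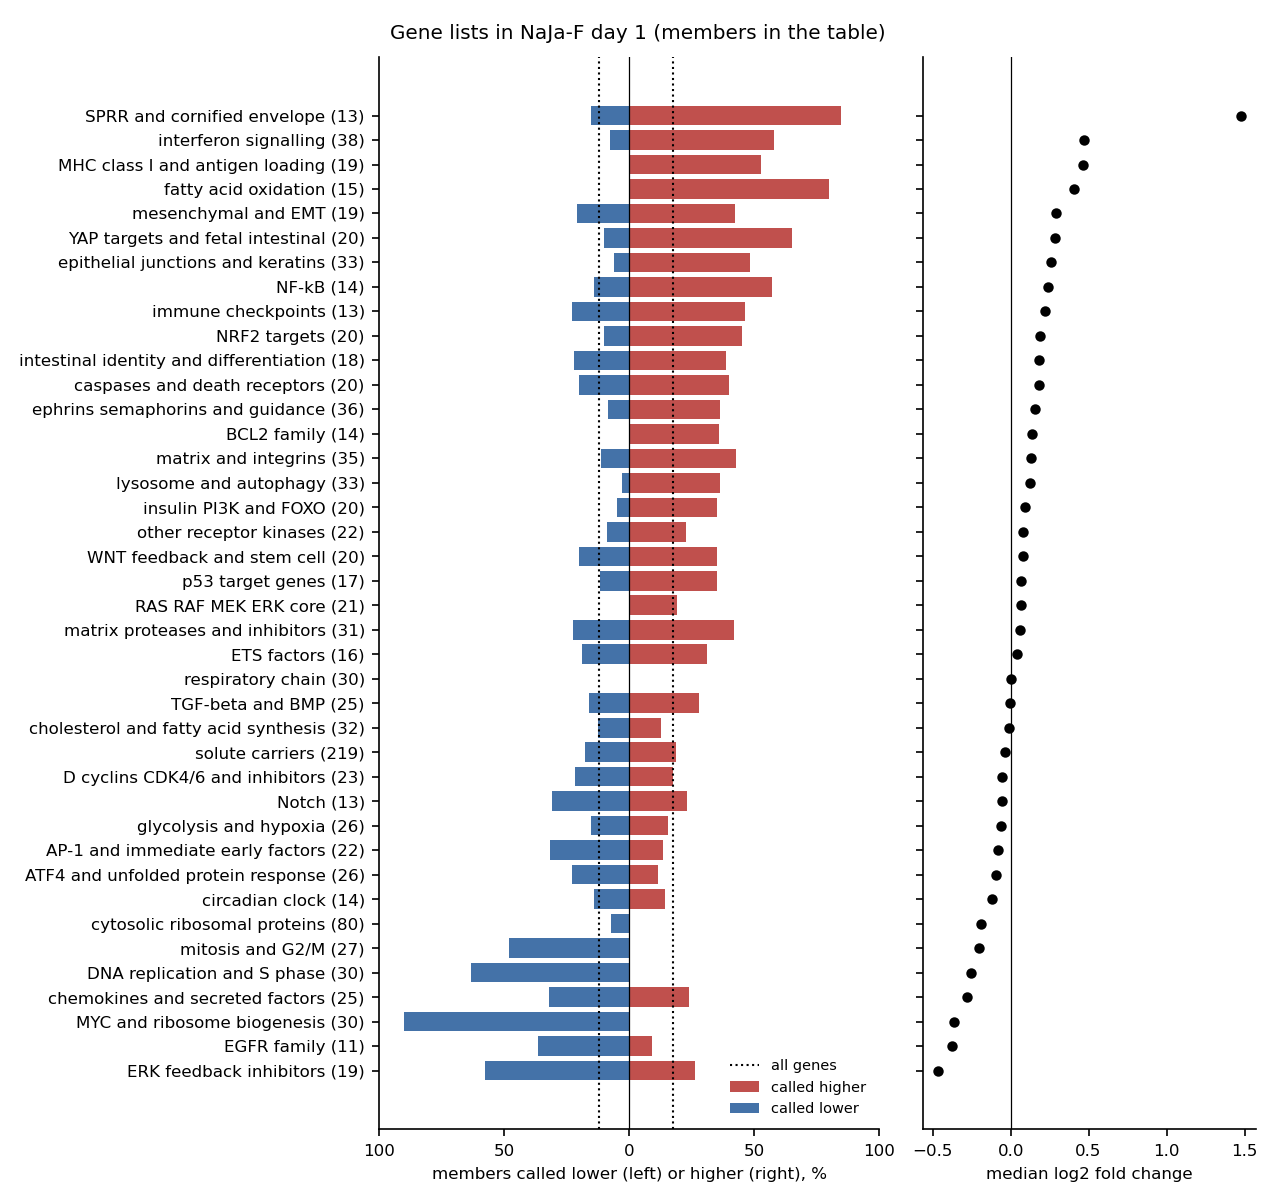
For 40 gene lists with at least 10 members in the table, the percentage of members called lower (blue, left) and higher (red, right) with the shares of all genes as dotted lines (12% and 17.5%), and on the right the median log2 fold change. The lists run from SPRR and cornified envelope at 1.48 (0.47 without its members below 2 log2 CPM) to ERK feedback inhibitors at -0.47, and the respiratory chain has no called member.

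The size of the NaJa-F response was set beside that of the other lines and of day 5 by testing the difference of fold changes in the same fit. All 3 tests hold the 6 NaJa-F day 1 libraries, so they are not independent of each other. At day 1 the response differed between NaJa-F and NaJa-D for 1240 genes (8.79%), being more positive in NaJa-F for 633 (51.0% of them) and more negative for 607. That share depended on the settings. It was 34.7% of 1209 calls when scaled by library size alone and 30.2% of 202 differences of at least 1, but 60.2% of 1309 among genes of at least 2 log2 CPM, 66.3% of 415 in a fit of only the groups compared and 67.6% of 1061 without the first NaJa-D DMSO library. That count depended on single libraries, ranging from 645 without the first to 3937 without the third NaJa-D encorafenib library. Between NaJa-G and NaJa-F the response differed for 4724 genes (33.5%), and between day 5 and day 1 of NaJa-F, where day 5 has only 2 encorafenib libraries, for 830 genes (5.88%), of which 699 were more negative at day 5.

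Growth genes had a weaker response in NaJa-F than in NaJa-G. All 30 ribosome biogenesis genes, all 27 mitosis genes and 29 of 30 S phase genes had a different response in NaJa-G, with medians of -1.26, -1.04 and -1.0 there against -0.36, -0.21 and -0.25 in NaJa-F. For NaJa-D the medians were -0.50, -0.62 and -0.38, and 4, 16 and 2 members differed from NaJa-F, against 8.79% of all genes. Without the third NaJa-D encorafenib library, which correlated with its replicates at 0.988 against 0.997 between the other two, these NaJa-D medians were -0.58, -0.67 and -0.43. Dusp6 had log2 fold changes of -0.90 in NaJa-F, -0.55 in NaJa-D and -1.90 in NaJa-G at day 1, and of -0.24 in NaJa-F at day 5. Bcl2l11, not called in NaJa-F, had a log2 fold change of 1.51 in NaJa-G, and the difference was 1.52 ± 0.11 (SE, adjusted p = 5.17e-12). ERK feedback inhibitors differed for 13 of 19 members between NaJa-G and NaJa-F and for 4 between NaJa-F and NaJa-D, namely Spry1, Spred1, Spred2 and Spred3, the last of which lost the call without any of 8 of the 12 libraries.

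By day 5 some of the NaJa-F changes were smaller, some larger and some opposite in sign. Smoc2 had a log2 fold change of -2.30 at day 1 and -4.44 at day 5, and Dgkk, a diacylglycerol kinase gene, of 0.90 and 2.12. WNT feedback and stem cell genes held the largest share, with 12 of 20 called for a difference between days. Notum went from 1.34 at day 1 to -1.63 at day 5 and Axin2 from 0.25 to -0.32. Fatty acid oxidation genes differed for 7 of 15 members and had a median of 0.10 at day 5 against 0.41 at day 1. Interferon response genes had medians of 0.79 at day 5 and 0.64 at day 1, with 3 of 20 called for a difference. Fosl1 went from -1.22 to -0.65 and Egr1 from -0.91 to 0.56. Egr1 in DMSO stood at 22.7 CPM at day 1 and 11.8 CPM at day 5, and in encorafenib at 12.1 and 17.3 CPM. A difference between days thus holds changes of the DMSO libraries as well as of the encorafenib libraries. The part of each was not tested.

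**Figure D5:**
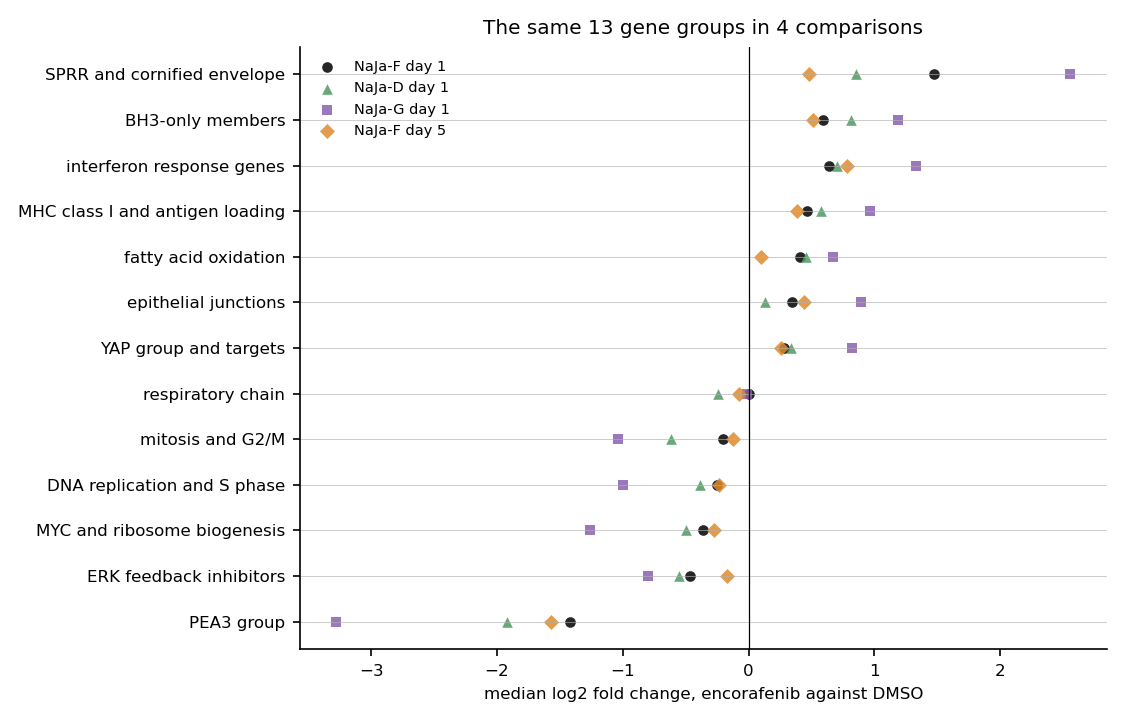
Median log2 fold change of encorafenib over DMSO (x axis) of the same 13 gene groups in NaJa-F day 1 (black circles), NaJa-D day 1 (green triangles), NaJa-G day 1 (purple squares) and NaJa-F day 5 (orange diamonds). NaJa-G lies farthest from 0 in most groups, as in ribosome biogenesis at -1.26 against -0.36 in NaJa-F, and the respiratory chain is near 0 in NaJa-F.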

How the data were processed

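Libraries of NaJa-F, NaJa-D and NaJa-G cells were sequenced as bulk RNA. Per the labels, the authors trimmed reads with Trimmomatic 0.39 and aligned them with STAR 2.5.2b to GRCm38/mm10, and the deposited table holds raw counts per Ensembl gene for 14107 genes. The counting tool, annotation release and strand setting are not given in the sources used here. Counts were TMM-scaled with edgeR 4.0.16 and fitted with limma-voom (limma 3.58.1, R 4.3.3), with 1 mean for each of 12 groups of line, treatment and day over all 34 libraries, moderated two-sided tests and Benjamini-Hochberg adjustment over all genes, called below 0.01. The study states limma, TMM and this threshold, and the voom weights and the model of group means were chosen here. The third NaJa-D DMSO day 1 library is given as NaJa-G in 1 label field but was kept in the group that its title names. Over the NaJa-D DMSO day 1 libraries Smoc2 had a mean of 12.7 CPM (SD 1.03), against 296 CPM in NaJa-G. For Serpinb11 the mean was 163 CPM (SD 17.7), against 1.25 CPM in NaJa-G. Every column of the table was used. DESeq2 1.42.0, edgeR and other settings were alternatives, and scripts were tested on simulated counts. Symbols and positions came from GENCODE M21 (GRCm38).

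Named genes were Braf, Trp53 and Apc, the 15 highest and 15 lowest log2 fold changes among called genes of at least 2 log2 CPM without overlap between groups, the 5 highest and 5 lowest for each difference in response, the 20 most abundant called genes, and members of 44 gene lists (1148 of 1242 genes in the table), from which defining members and examples of larger changes were given, not always the largest where levels were low. The comparison and the lists were chosen with earlier results of these data known, and other genes singled out in the text were chosen after their values were seen. Some genes are not reported here.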

Additional observations from a re-analysis of the deposited data

Results flagged for a closer look

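The following values are differences of log2 fold changes between lines or days, each tested as a difference in the limma-voom model, and none comes with an explanation. NaJa-F and NaJa-D differed at day 1 for 1240 genes, NaJa-G and NaJa-F for 4724 genes, and day 5 and day 1 of NaJa-F for 830 genes. No test of single outlying libraries within groups of 3 was made.

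Set against NaJa-D at day 1 (NaJa-F minus NaJa-D, ± SE), the response of NaJa-F was more negative for Prr9 (-2.62 ± 0.32), Psca (-2.10 ± 0.15), Tnxb (-1.64 ± 0.22), Cxcl1 (-1.61 ± 0.26) and Ivl (-1.52 ± 0.14). It was more positive for Gm21698 (2.81 ± 0.69), Spon2 (2.59 ± 0.28), Aqp8 (2.12 ± 0.31), Tgfbi (2.01 ± 0.18) and Slc26a9 (1.94 ± 0.13). Aqp8 thus fell in both lines, with log2 fold changes of -3.93 in NaJa-F and -6.05 in NaJa-D, and Psca rose by 2.29 and 4.39. Vimentin (Vim) differed by 0.90 ± 0.14 and the WNT antagonist gene Dkk2 by 1.37 ± 0.09. The ERK targets Fosb (-0.87 ± 0.14), Areg (-0.86 ± 0.14) and Spred3 (-1.29 ± 0.31) were more negative in NaJa-F, but groups of ERK targets went both ways. The ERK feedback inhibitors had medians of -0.47 in NaJa-F and -0.55 in NaJa-D, and the PEA3 factors of -1.42 and -1.92. The medians of the FOS family were -0.74 and -0.50 and those of the EGF receptor ligands -0.55 and -0.03. Gm21698 was near 0 in NaJa-D, at 1.11 CPM in DMSO and 0.0285 CPM in encorafenib. Its call was lost without any of 3 libraries, with the highest adjusted p, 0.0831, without the first NaJa-D encorafenib library (difference 2.11). Prr9 and Spon2 were also low in NaJa-D, at 0.767 and 0.718 CPM in DMSO and 7.07 and 0.866 CPM in encorafenib.

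In NaJa-G against NaJa-F at day 1 (NaJa-G minus NaJa-F), the response was more negative in NaJa-G for Ivl (-3.28 ± 0.26), Gm21698 (-2.71 ± 0.57), Ube2ql1 (-2.67 ± 0.17), Etv4 (-2.64 ± 0.11), Csf2 (-2.62 ± 0.36) and Dusp6 (-1.0 ± 0.11). It was more positive for Serpinb1a (3.41 ± 0.20), Serpinb11 (2.94 ± 0.20), Nat8l (2.89 ± 0.26), Psca (2.89 ± 0.22), Gas7 (2.88 ± 0.24) and Bcl2l11 (1.52 ± 0.11). The limit of 2 log2 CPM was set on the NaJa-F libraries only. In NaJa-G DMSO, Serpinb1a, Serpinb11, Nat8l, Psca and Gas7 stood at 1.16, 1.25, 0.436, 0.524 and 0.461 CPM. In NaJa-G encorafenib Serpinb1a reached 80.4 CPM, but Nat8l and Gas7 only 4.13 and 2.15 CPM. Ivl, Csf2 and Gm21698 stood there at 0.413, 0.153 and 0.0527 CPM.

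In NaJa-F at day 5 against day 1 (day 5 minus day 1), the WNT feedback genes Nkd1 (-3.32 ± 0.19) and Notum (-2.97 ± 0.23) were more negative at day 5, as were Dync1i1 (-3.29 ± 0.17), Aldh3a1 (-2.89 ± 0.11), Sprr2a3 (-2.89 ± 0.20) and Smoc2 (-2.13 ± 0.12). More positive at day 5 were Egr1 (1.47 ± 0.15), Gdf15 (1.40 ± 0.31), Clca3a1 (1.33 ± 0.29), Dgkk (1.21 ± 0.13), Tnc (1.05 ± 0.11) and Dusp6 (0.66 ± 0.11). The DMSO levels also differed between days. From day 1 to day 5 they rose for Nkd1 (8.83 to 28.2 CPM), Notum (6.67 to 24.9 CPM), Dync1i1 (4.41 to 14.2 CPM) and Sprr2a3 (2.91 to 7.41 CPM). They fell for Egr1 (22.7 to 11.8 CPM) and Tnc (31.8 to 20.5 CPM), and moved less for Aldh3a1 (22.4 to 30.4 CPM).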

How the results depend on the processing

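The count of 4161 genes changed in NaJa-F at day 1 lay between 3492 and 4410 with edgeR (4164), DESeq2 (4410), limma-trend, other filters, other scalings and a fit of only the groups compared. Of the 4161 calls edgeR shared 4017 and DESeq2 4060, all with the same sign. An adjusted p below 0.05 gave 5880, an added minimum log2 fold change of 1 gave 691, and leaving out 1 library gave 3272 to 3666. The median log2 fold change of all genes moved by less than 0.1 under every scaling. Scaled by library size alone, 12 named genes that had missed the threshold passed it, among them Axl, Cdx2, Clu, Dusp4 and Trp53.

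The 1240 differences between NaJa-F and NaJa-D were the least stable. DESeq2 gave 2143, only the groups compared gave 415, an adjusted p below 0.05 gave 3223 and a difference of at least 1 gave 202. Leaving out 1 library gave 645 to 3937: 808 without the third encorafenib and 715 without the third DMSO library of NaJa-F, 645, 752 and 3937 without the first, the second and the third encorafenib library of NaJa-D, and 758 without the third DMSO library of NaJa-D. For NaJa-G against NaJa-F the minimum of 1 gave 953 and leaving out 1 library 4203 to 4663. For day 5 against day 1 an adjusted p below 0.05 gave 1414, the minimum of 1 gave 286, and leaving out 1 library gave 577 to 794. The cause of these shifts was not tested.

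Without 1 of the 6 libraries, 35 of the named genes called in NaJa-F at day 1 lost the call, at adjusted p of 0.0101 to 0.0539 and with the same sign. Fosl2, Srebf1 and Cd44 lost it whichever library was left out, Mcm5, Nras and Slc2a1 for 5 libraries, and Ccne1, Cdh2, Col1a1, Eif4g1, Gata4, Lrig3, Mcm3, Pdk4, Pidd1, Psat1, Rpl37a, Spred1 and Zeb1 for 4. Etv1, Jag1 and Socs1 lost it for 3, Bmf, Msln, Snai1 and Sprr2a1 for 2, and Axin2, Ddr1, Dusp7, Mcm7, Mmp13, Ncl, Orc1, Ptpn11 and Sema3c for 1. Among the differences in response, the calls of Spred3, Gm21698, Gdf15 and Clca3a1 were lost in this way. Only genes without a call changed sign: log2 fold changes without 1 library ran from -0.0337 to 0.0168 for Bcl2l11, from -0.0972 to 0.0177 for Braf and from -0.0585 to 0.00389 for Cd14.

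DMSO and encorafenib libraries carry the same replicate numbers, but deviations of same-numbered libraries correlated at only 0.00502, 0.0343 and 0.0697, and the first encorafenib library correlated best with the second DMSO library (0.0547), so the numbers were not taken as pairs. With the replicate number as a block 4132 genes were called in NaJa-F at day 1, 4056 of them shared with the 4161, and 1220, 4687 and 814 differences in response. Srebf1 lost its call with the block (adjusted p = 0.0109) and Erbb3 gained one.

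With 3 libraries per treatment the median standard deviation between replicates was 0.0889 on the log2 scale in DMSO and 0.0606 in encorafenib, and genes at low counts have wider errors. Without genes below 2 log2 CPM, 15 of 42 list medians moved by more than the spread between replicates, among them that of ERK feedback inhibitors to -0.41, that of the SPRR genes to 0.47, that of interferon signalling from 0.47 to 0.23, that of intestinal identity from 0.18 to -0.0154 and that of matrix and integrins from 0.13 to 0.04. Leaving out 1 library moved 33 of 264 list medians by more than that spread.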
